A study of Mus musculus with 4 samples.

Results

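The genes described here are 10 identity genes of the deep layers of the mouse cerebral cortex, the neurons of layers 5 and 6 and of the subplate beneath them. They were taken by name from the deposited table of 55414 genes. The table lists 9 of them under the symbols used here (Bcl11b, Fezf2, Ldb2, Crym, Etv1, Tbr1, Tle4, Sox5 and Nxph4), and the tenth, Ctgf, under its current symbol Ccn2, which was matched through the RefSeq synonyms. All 10 are annotated as protein coding and all 10 were among the 17017 genes that passed the filter on low counts. The study measured RNA in the cerebral cortex of C57BL/6J mice at postnatal day 1. There were 2 cKO libraries (replicates 2 and 3), from mice with both Mkk7 alleles floxed and the Emx1-Cre transgene, and 2 Control libraries (replicates 2 and 3), from mice with the same floxed alleles and no Cre named in their genotype. Emx1-Cre acts in dorsal telencephalic progenitors, and thus in the excitatory neurons and glia born from them, and largely not in striatal neurons and cortical interneurons, most of which arise in the ventral telencephalon. Nothing in the labels ties a library to its own animal. P-values here describe the spread between libraries, which may be partly technical; the cKO libraries came from animals of different sex, and for the Control libraries separate animals are not shown.

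The deep layers hold the neurons through which the cortex reaches the rest of the brain. Layer 5 sends axons to the spinal cord, brainstem and striatum, layer 6 to the thalamus, and the subplate holds early-born neurons that serve as a waiting zone for thalamic axons. Their identities are set by transcription factors that repress each other: Fezf2 promotes the subcerebral fate of layer 5 and acts upstream of Bcl11b (also called Ctip2), and Tbr1 and Sox5 hold back the layer 5 programme in layer 6 and subplate neurons.

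Library totals lay between 19421470 and 22511175 rounded counts, with counts in 21598 to 21914 genes. Map2k7, which encodes MKK7, stood at 47.9 and 48.2 CPM (counts scaled to a library of 1000000) in the cKO libraries, against 38.4 and 30.4 CPM in the Control libraries (edgeR adjusted p = 0.428), so this gene did not check the genotypes: its value sums reads over all exons, and which exons were floxed is not given. Reads of Xist and Ddx3y showed cKO 3 to come from a male (0 and 985 counts) and cKO 2 (1218 and 0), Control 2 (1145 and 0) and Control 3 (1004 and 0) from females; sex and genotype can therefore not be told apart in cKO 3. Fits without that library were run for the 10 genes and for the count of all genes called, and not for the marker lists, whose sums are given by library. Markers of cortical excitatory neurons were abundant in every library. Neurod6, a factor of young pyramidal neurons, had 730 and 720 CPM in the cKO libraries and 480 and 587 CPM in the Control libraries. Genes of striatal neurons were present as well, at a summed 198 and 177 CPM in the cKO libraries and 509 and 368 CPM in the Control libraries over the 15 genes listed. Some of these genes, among them Ppp1r1b, are also made by cortical neurons. In bulk tissue, fewer cells of a type, less RNA per cell and a different amount of neighbouring tissue taken cannot be told apart.

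The promoters of the 3 members that sit at the core of the cross-repression, Bcl11b, Fezf2 and Tbr1, are shown because the comparison below turns on how these genes stand to each other. The sequences are RefSeq's, of build GRCm38.p6, and give the 250 bases before the annotated start on the gene's own strand; the table held a start for 6 of the 10 genes. Capitals mark matches, on either strand, to 4 motifs that were searched in the window of 250 bases before to 50 after the start. They were the AP-1 site TGANTCA, bound by the Jun and Fos factors that act downstream of JNK, the cAMP-response element TGACGTCA, the SOX core AACAAT and the T-box site AGGTGTGA, and matches to different motifs could overlap. Bcl11b lies at chr12:108003415-108003664 on the minus strand, Fezf2 at chr14:12345866-12346115 on the minus strand and Tbr1 at chr2:61804203-61804452 on the plus strand. In the deposited table, which is on build GRCm39, Fezf2 is listed on the plus strand.
Bcl11b: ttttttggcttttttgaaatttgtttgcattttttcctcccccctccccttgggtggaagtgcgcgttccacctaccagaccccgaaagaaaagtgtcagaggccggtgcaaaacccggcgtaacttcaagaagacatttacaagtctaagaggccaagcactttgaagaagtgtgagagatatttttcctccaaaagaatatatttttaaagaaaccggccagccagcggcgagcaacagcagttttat
Fezf2: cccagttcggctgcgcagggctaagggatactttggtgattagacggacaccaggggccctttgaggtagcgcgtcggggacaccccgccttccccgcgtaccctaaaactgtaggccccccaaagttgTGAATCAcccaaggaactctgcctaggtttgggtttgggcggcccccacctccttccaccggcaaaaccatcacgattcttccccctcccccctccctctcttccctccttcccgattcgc
Tbr1: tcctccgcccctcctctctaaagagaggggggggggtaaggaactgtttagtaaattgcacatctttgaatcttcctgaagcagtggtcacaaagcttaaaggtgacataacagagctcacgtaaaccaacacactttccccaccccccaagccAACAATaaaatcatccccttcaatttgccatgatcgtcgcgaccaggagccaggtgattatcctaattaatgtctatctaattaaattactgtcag
The Bcl11b window held no match to the 4 motifs. The Fezf2 window held 1 AP-1 match, which began at base -121 from the start, and the Tbr1 window held 1 SOX core match, which began at base -96. Among all 32851 promoter windows of the same length, 7.81% held the AP-1 site, 1.79% the cAMP-response element, 10.7% the SOX core and 1.28% the T-box site. A match describes letters in a window and says nothing of binding.

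The 10 genes covered a wide range of levels. On the deposited TPM scale, which corrects for transcript length and so allows genes to be set side by side, the mean over the 4 libraries was highest for Ldb2 (163 TPM) and Crym (156 TPM) and lowest for Nxph4 (7.07 TPM). Bcl11b (90.3 TPM), Fezf2 (64.1 TPM), Sox5 (62.7 TPM) and Tbr1 (38.1 TPM) lay between them, followed by Etv1 (21.2 TPM), Tle4 (20.6 TPM) and Ctgf (18.3 TPM). The ranges of the 4 libraries were separate between Crym and Bcl11b, between Sox5 and Tbr1, between Tbr1 and Etv1 and between Ctgf and Nxph4. The other neighbours in this order overlapped and are not ordered by these data. TPM stood high in cKO 3 for several of the genes, and so did TPM relative to CPM in general: over 11922 genes, the median log2 ratio of TPM to CPM was 0.09 above the mean of the libraries in cKO 3 and at -0.11 in cKO 2. Differences between genotypes are therefore given in CPM after TMM scaling.

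**Figure D1:**
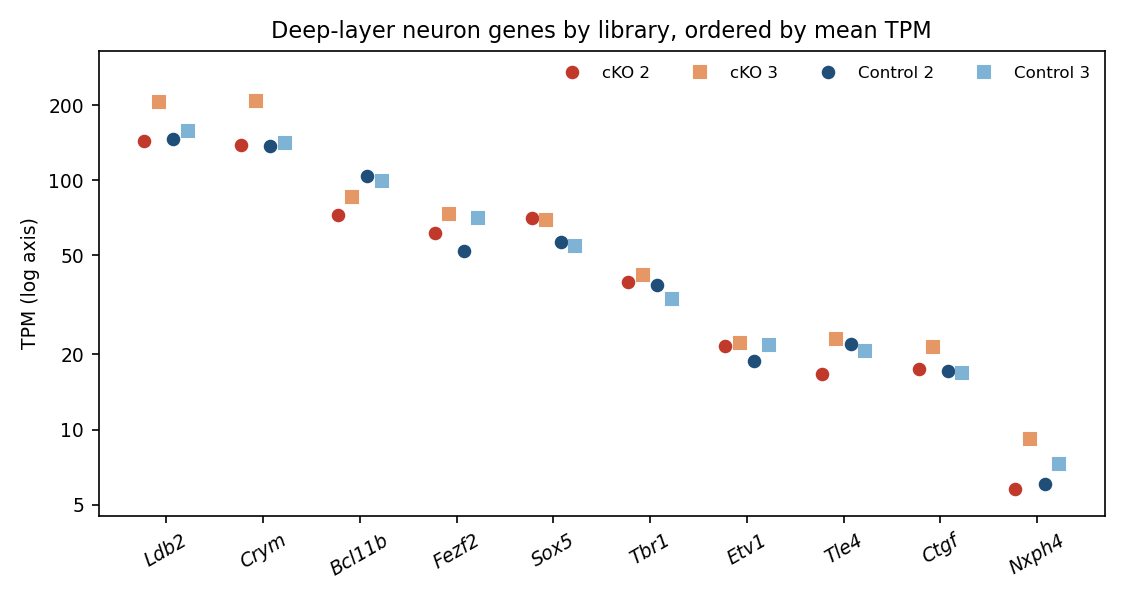
TPM (log axis) of the 10 deep-layer genes in the 2 cKO and 2 Control libraries, 1 point per library, ordered by the mean over the libraries. Levels run from about 7.07 TPM for Nxph4 to 163 TPM for Ldb2, and Bcl11b is the one gene for which both cKO points lie below both Control points.

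The comparison of genotypes asks whether the deep-layer genes depend on Mkk7, and none of the 10 genes passed the test between cKO and Control. With edgeR's quasi-likelihood test, 0 of the 10 had an adjusted p below 0.05, where 0.0470% of all genes tested did (0.00588% higher and 0.0411% lower). At an unadjusted p below 0.05 there was 1 of the 10, Bcl11b, where 10.9% of all genes passed. DESeq2 called none of the 10 either, where it called 1.09% of all genes. The fold change was positive for 8 of the 10 genes, where it was positive for 49.8% of all genes, and negative for Bcl11b and Tle4. The median log2 fold change was 0.16, against -0.0021 over all genes tested. Both genotypes were separate, with no overlap of their libraries, in 6 of the 10 genes, as in 44.1% of all genes: cKO lay above Control for Crym, Etv1, Tbr1, Sox5 and Ctgf (22.0% of all genes lay in that direction) and below it for Bcl11b (22.2% of all genes). The median was 0.09 without Control 2 and 0.08 without cKO 3, so its size rests partly on these libraries.

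How closely the differences were bounded rests on the spread between 2 libraries per genotype in bulk tissue. For the Control libraries separate animals are not shown, so the intervals need not hold between animals. The standard error of the log2 fold change was below 0.2 for 9 of the 10 genes. The approximate 95% interval, from the edgeR standard error and its moderated degrees of freedom, lay inside a 2-fold change in either direction for all 10 genes and inside a 1.5-fold change for 7 of them. The exceptions at 1.5-fold were Crym (0.969- to 1.60-fold), Sox5 (0.993- to 1.54-fold) and Nxph4 (0.649- to 1.94-fold). The interval held no change for 9 of the 10 and left it out for Bcl11b. These intervals are not adjusted for the number of genes.

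**Figure D2:**
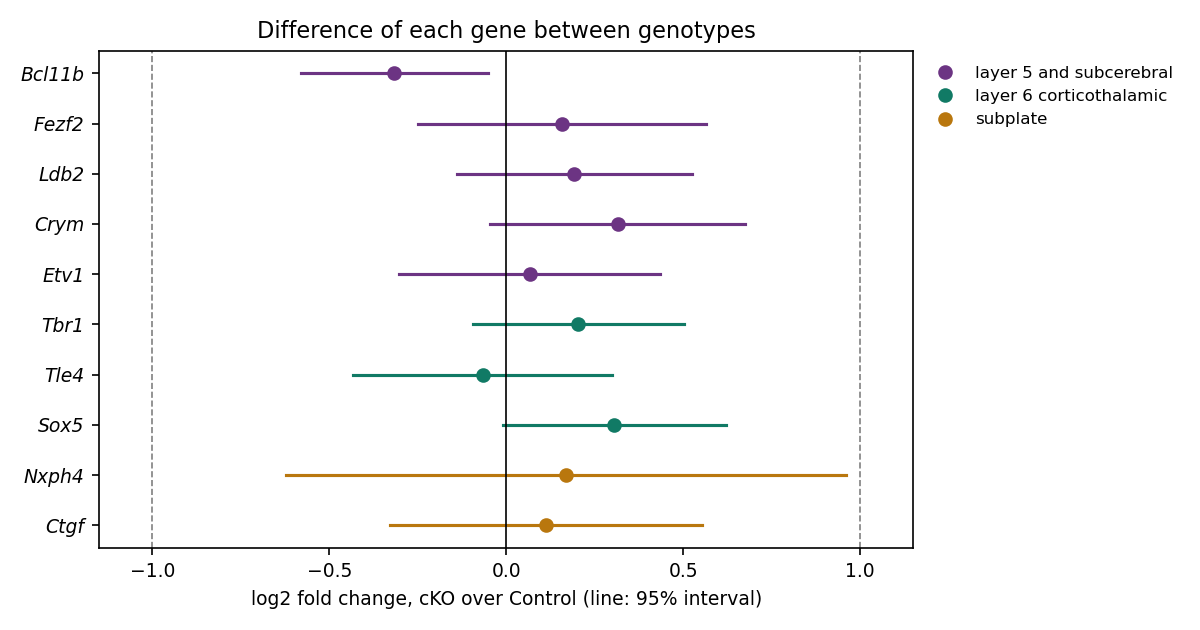
Log2 fold change of each deep-layer gene, cKO over Control (points), with its 95% interval (lines), coloured by layer; dashed lines mark a 2-fold change. All intervals lie between the dashed lines, and that of Bcl11b, from -0.58 to -0.05, is the one that does not cross 0.

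Among the 5 genes of layer 5, 4 had a positive fold change and the median was 0.16 (log2). Bcl11b encodes a zinc-finger factor that layer 5 neurons need to extend axons to the spinal cord, and striatal neurons make it as well (ENSMUSG00000048251.16; chromosome 12, 107876662 to 107969861, GRCm39, as are all gene coordinates below). It stood at 201 and 212 CPM in cKO 2 and cKO 3, against 268 and 247 CPM in Control 2 and Control 3. Both cKO libraries lay below both Control libraries. The log2 fold change came to -0.32 with a standard error (SE) of 0.11 over 2 libraries a genotype (edgeR adjusted p = 0.411). This is a fold of 0.803, and the log2 value lay between -0.38 and -0.26 when each library was left out in turn.

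Fezf2 encodes the zinc-finger factor that specifies subcerebral neurons (chromosome 14, 10121574 to 10127669). It stood at 99.8 and 103 CPM in the cKO libraries, against 76.2 and 106 CPM in the Control libraries. The groups overlapped, since Control 2 was the lowest and Control 3 the highest of the 4. The log2 fold change was 0.16 (SE 0.17, edgeR adjusted p = 0.778) with all libraries and turned to -0.06 without Control 2.

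Ldb2 encodes a LIM-domain-binding cofactor that marks corticospinal neurons (chromosome 5, 44629474 to 44957022). It stood at 131 and 158 CPM in the cKO libraries and at 119 and 135 CPM in the Control libraries, with overlap (log2 fold change 0.19, SE 0.14, edgeR adjusted p = 0.663). Crym encodes mu-crystallin, a thyroid hormone-binding protein (chromosome 7, 119785603 to 119801334). It stood at 132 and 172 CPM in the cKO libraries and at 119 and 125 CPM in the Control libraries, a log2 fold change of 0.32 (SE 0.15, edgeR adjusted p = 0.512). In both genes the highest library was cKO 3, the male one, and without it their log2 fold changes were 0.05 for Ldb2 and 0.11 for Crym. Etv1 encodes the ETS factor ER81 of layer 5 neurons (chromosome 12, 38829379 to 38920483). It was the most even of the layer 5 genes, at 45.8 and 46.7 CPM in the cKO libraries and 44.6 and 43.8 CPM in the Control libraries (log2 fold change 0.07, SE 0.16, edgeR adjusted p = 0.915).

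Of the 3 genes of layer 6, 2 had a positive fold change and the median was 0.20 (log2). Tbr1 encodes the T-box factor of corticothalamic neurons (chromosome 2, 61633274 to 61644458). It stood at 108 and 106 CPM in the cKO libraries, against 97.2 and 88.0 CPM in the Control libraries. Both cKO libraries lay above both Control libraries, by less than the test could call (log2 fold change 0.20, SE 0.13, edgeR adjusted p = 0.600). Sox5 encodes an SRY-box factor that delays the layer 5 programme in subplate and layer 6 neurons (chromosome 6, 143774151 to 144727703). It stood at 113 and 98.0 CPM in the cKO libraries, against 84.1 and 86.9 CPM in the Control libraries, again without overlap. The log2 fold change was 0.31 (SE 0.14, edgeR adjusted p = 0.466), and 0.20 without cKO 2. Tle4 encodes a Groucho-family corepressor of layer 6 neurons (chromosome 19, 14425514 to 14575415). It stood at 58.9 and 71.0 CPM in the cKO libraries and at 70.5 and 65.5 CPM in the Control libraries. These overlapped, and the log2 fold change of -0.07 (SE 0.16, edgeR adjusted p = 0.914) turned to 0.06 without cKO 2.

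Both subplate genes had the lowest TPM of the 10 and the largest standard errors. Nxph4 encodes a neurexophilin, a secreted ligand of neurexins (chromosome 10, 127361342 to 127370428). It had 124 and 204 deposited counts in the cKO libraries and 120 and 151 in the Control libraries, or 6.53 and 8.93 CPM against 6.11 and 7.66 CPM. The groups overlapped, and the log2 fold change of 0.17 (SE 0.34, edgeR adjusted p = 0.895) turned to -0.08 without cKO 3. Ctgf encodes a matricellular protein (chromosome 10, 24471340 to 24474581). In the cortex it marks subplate neurons, and vessels and meninges make it as well. It stood at 30.4 and 27.7 CPM in the cKO libraries and at 26.9 and 26.8 CPM in the Control libraries (log2 fold change 0.11, SE 0.19, edgeR adjusted p = 0.868). Without cKO 2 the log2 fold change was 0.05, and without cKO 3 it was 0.18. Markers of other cells that make Ctgf were measured in the same samples. The summed level of 10 meningeal and fibroblast genes was 463 and 440 CPM in the cKO libraries and 319 and 378 CPM in the Control libraries, with 8 of 10 positive, and the order of the genotypes was the same in TPM (192 and 198 TPM in the cKO libraries, 129 and 159 TPM in the Control libraries). That of 10 genes of endothelium and pericytes was 299 and 279 CPM in the cKO libraries and 274 and 265 CPM in the Control libraries, with 7 of 10 positive, but overlapped in TPM, at 180.0 and 186 TPM in the cKO libraries and 192 and 185 TPM in the Control libraries. Their part in the Ctgf value was not tested.

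Other genes of the same layers, listed beside the 10, gave no call with edgeR. Of 12 further layer 5 genes, 0 passed with edgeR or DESeq2 and 6 had a positive fold change (median log2 fold change 0.01); 1 higher and 1 lower gene had an unadjusted edgeR p below 0.05. Pcp4, a calmodulin-binding protein of layer 5 that striatal neurons also make, stood at 92.3 and 75.0 CPM in the cKO libraries and at 136 and 105 CPM in the Control libraries (log2 fold change -0.53, SE 0.17). Otx1, a homeobox factor of layers 5 and 6, stood at 11.7 and 18.0 CPM against 8.55 and 9.03 CPM in the Control libraries (0.76, SE 0.30), and Crim1, a marker of corticospinal neurons, had a value of 0.16 (SE 0.21). Of 9 further layer 6 genes, 0 passed with edgeR and 2 were called higher by DESeq2, while 5 were positive (median 0.04); 2 higher and 2 lower genes had an unadjusted edgeR p below 0.05. Foxp2, a forkhead factor of layer 6 and of striatal neurons, stood at 26.7 and 27.3 CPM in the cKO libraries and at 55.6 and 33.9 CPM in the Control libraries (-0.73, SE 0.25). Syt6, a synaptotagmin gene of corticothalamic neurons, had a value of -0.68 (SE 0.20) and the Fog2 gene Zfpm2 one of 0.14 (SE 0.24). Nfia, chosen after its values were seen as the layer 6 gene with the smallest p, encodes a nuclear factor that glial progenitors also make, and stood at 78.7 and 82.4 CPM against 47.8 and 40.5 CPM in the Control libraries (0.87, SE 0.16, edgeR adjusted p = 0.235). Of 11 further subplate genes, 0 passed with edgeR or DESeq2 and 7 were negative (median -0.38); 2 higher and 1 lower gene had an unadjusted edgeR p below 0.05. Cplx3, a complexin, had a value of -0.38 (SE 0.47), the nuclear receptor gene Nr4a2 one of 0.30 (SE 0.12) and the lysophosphatidic acid receptor gene Lpar1 one of 0.80 (SE 0.26). The subplate values thus went both ways within the list.

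The layers above and the general markers of excitatory neurons give the scale against which the 10 genes can be read. Of 13 upper-layer genes 0 passed with edgeR or DESeq2, 2 had an unadjusted edgeR p below 0.05, 9 were positive and the median log2 fold change was 0.16, as for the 10 genes. Cux2 and Cux1, homeobox genes of the upper layers, had values of 0.16 (SE 0.23) and -0.11 (SE 0.12). Of 8 genes shared by cortical excitatory neurons 0 passed with edgeR, 1 was called higher by DESeq2 and 5 had an unadjusted edgeR p below 0.05; all 8 were positive and the median was 0.39. Neurod6 and Neurod2, both basic helix-loop-helix factors of these neurons, had values of 0.44 (SE 0.12) and 0.56 (SE 0.16), and the vesicular glutamate transporter gene Slc17a7 one of 0.19 (SE 0.15). As a description chosen after the values were seen, the summed TPM of the 10 deep-layer genes came to 46.2% and 50.9% of that of these 8 genes in cKO 2 and cKO 3, against 57.6% and 52.4% in Control 2 and Control 3. Without Bcl11b the percentages overlapped, at 40.5% and 45.2% in the cKO libraries and 47.6% and 44.0% in the Control libraries.

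**Figure D3:**
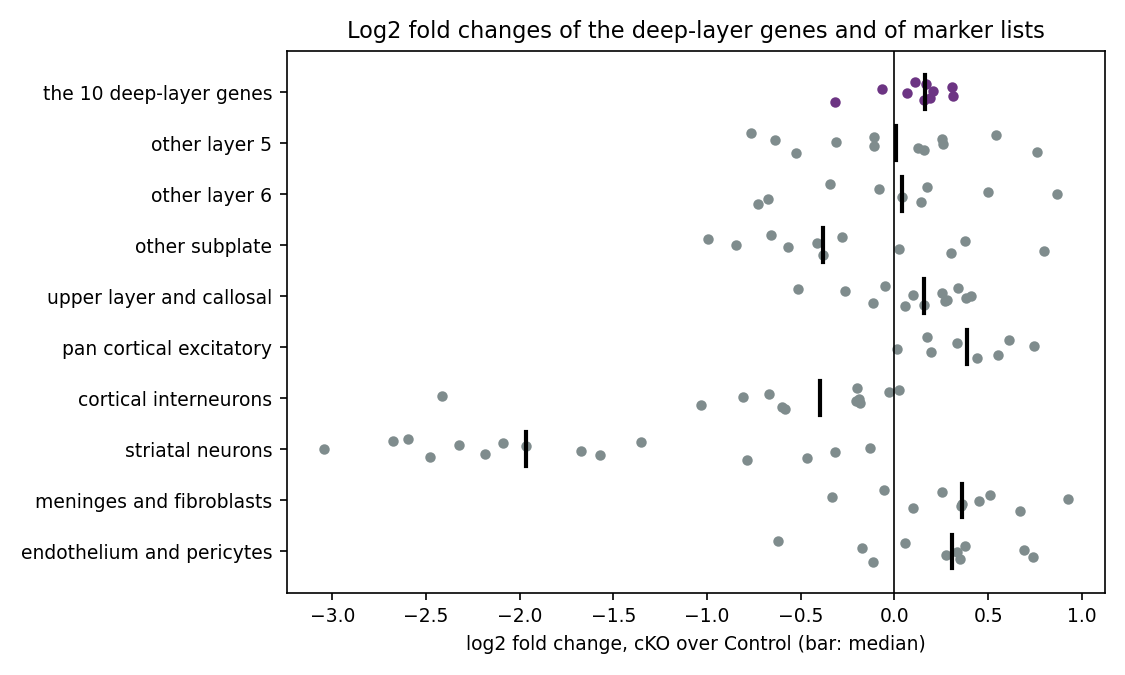
Log2 fold change, cKO over Control, of each of the 10 deep-layer genes (top row, purple) and of each tested gene of 9 marker lists (grey; the thalamus list is not drawn); black bars are medians. The deep-layer genes lie between -0.32 and 0.32 with a median of 0.16, while the 15 striatal genes have a median of -1.97 and the 8 excitatory genes one of 0.39.

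Of the 3 factors whose promoters are shown above, Bcl11b had a negative fold change and Fezf2 and Tbr1 positive ones; the difference between genes was not tested. On the TPM scale, Bcl11b made up 41.9% and 42.7% of the summed level of these 3 genes in cKO 2 and cKO 3, against 53.6% and 48.9% in Control 2 and Control 3. Fezf2 made up 35.5% and 36.5% in the cKO libraries, against 26.8% and 34.6% in the Control libraries. Tbr1 took 22.6% and 20.8% in the cKO libraries and 19.6% and 16.5% in the Control libraries. None of the 3 shares overlapped between genotypes, and the shares were not tested. The CPM of single genes did not overlap for 44.1% of all genes tested, but this is not a rate for shares of one sum. Fezf2 itself overlapped in CPM. Striatal neurons also make Bcl11b, and their part in these shares was not tested. Shares of one sum are tied to each other, so a lower share of Bcl11b raises the others.

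**Figure D4:**
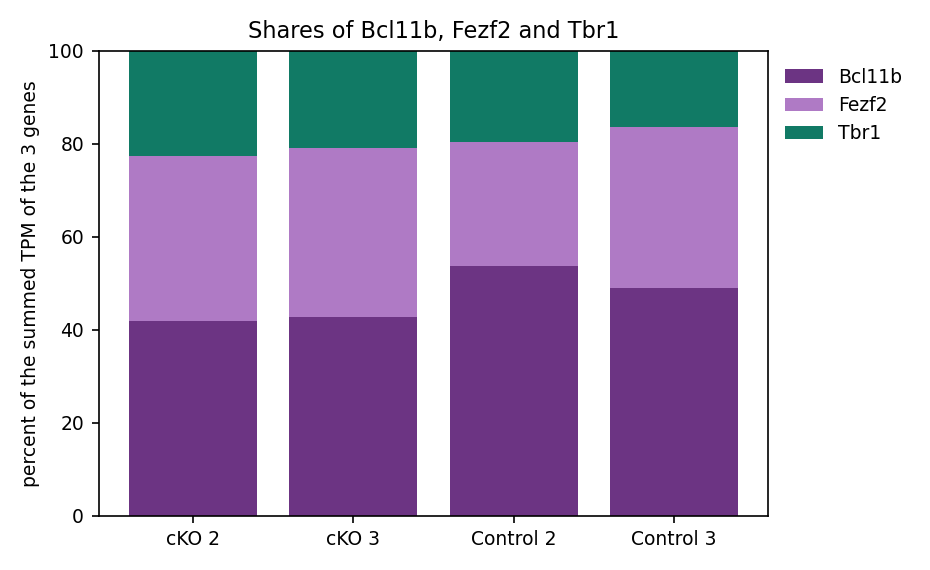
Percent of the summed TPM of Bcl11b, Fezf2 and Tbr1 that each gene takes, with a stacked bar per library, cKO left of Control. The Bcl11b part is 41.9% and 42.7% in the cKO libraries and 53.6% and 48.9% in the Control libraries.

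Markers of striatal neurons, which also make Bcl11b, were lower in the same libraries. All 15 striatal genes had a negative fold change, with 14 of them lower in both cKO libraries than in both Control libraries, and 0 passed edgeR's test (median log2 fold change -1.97, lowest edgeR adjusted p = 0.147). At an unadjusted p below 0.05 there were 11, and DESeq2 called 9 of the 15 lower. Ppp1r1b, which encodes DARPP-32, stood at 76.8 and 64.3 CPM in the cKO libraries and at 136 and 107 CPM in the Control libraries. The dopamine receptor genes Drd1 and Drd2 stood at log2 values of -0.46 (SE 0.26) and -2.48 (SE 0.46). None of the 15 was at 0 counts in a whole group, and the fold changes ran from -3.04 to -0.13. Of 12 cortical interneuron genes, some of whose cells also make Bcl11b, 11 were negative (median -0.39), 0 passed with edgeR, 1 was called lower by DESeq2 and 6 had an unadjusted edgeR p below 0.05. Their sum was 908 and 787 CPM in the cKO libraries and 1077 and 1000 CPM in the Control libraries. Gad1 and Gad2, which encode the GABA-synthesizing enzymes, had values of -0.59 (SE 0.21) and -0.60 (SE 0.17), and the vesicular GABA transporter gene Slc32a1 one of -1.03 (SE 0.35). The part of these cells in the Bcl11b value was not tested.

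**Figure D5:**
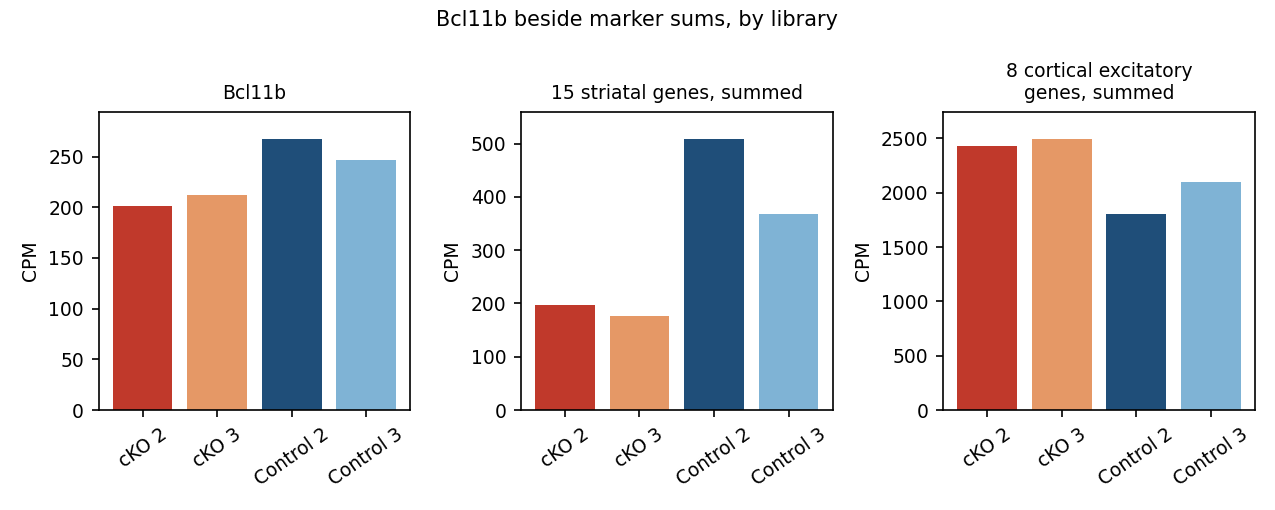
CPM of Bcl11b, summed CPM of 15 striatal genes and summed CPM of 8 cortical excitatory genes in each library, cKO left of Control. Bcl11b and the striatal sum are lower in both cKO libraries (198 and 177 CPM for the striatal sum, against 509 and 368 CPM), and the excitatory sum is higher (2425 and 2497 CPM, against 1802 and 2098 CPM).

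Marker genes of the thalamus, the target of layer 6 axons, were low. Their summed level was 39.8 and 56.8 CPM in the cKO libraries and 52.7 and 50.9 CPM in the Control libraries, with 3 of 6 tested genes positive. With edgeR 0 of the 6 passed and 2, both lower, had an unadjusted p below 0.05, while DESeq2 called 1 lower. Tcf7l2 had a value of -0.78 (SE 0.31, log2), Gbx2 had 0 counts in both cKO libraries against 1.53 and 2.64 CPM in the Control libraries, and Lef1 stood at -0.06 (SE 0.34, log2).

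The ratio of deposited counts to TPM gives an apparent transcript length for each library, which would move if the mix of long and short transcripts of a gene did. For 8 of the 10 genes the highest library was at most 1.06 times the lowest, below the median of 1.08 over 11018 genes with at least 100 counts in every library. The largest spreads were those of Ctgf (1.19) and Etv1 (1.19), and neither followed the genotype. The apparent length of Etv1 was 3579 and 3967 bases in the cKO libraries and 4224 and 3565 bases in the Control libraries. That of Ctgf was 2918 and 2453 bases in the cKO libraries and 2808 and 2829 bases in the Control libraries, with cKO 3 the lowest. Sox5, whose deposited gene length is 7243 bases, had apparent lengths of 2709 and 2676 bases in the cKO libraries and 2678 and 2838 bases in the Control libraries. Bcl11b had 4677 and 4695 bases in the cKO libraries and 4627 and 4429 bases in the Control libraries. Tle4 had 5916 and 5829 bases against 5740 and 5673 bases. In both genes the cKO libraries lay above the Control libraries, at small spreads (1.06 and 1.04). How many of all genes were separate in this way was not counted. The library kit does not mark the strand, so reads of overlapping genes on the opposite strand cannot be told apart. This touched Ctgf most, whose opposite-strand neighbour Gm15270 was credited with 9.97 and 15.7 counts in the cKO libraries and 10.8 and 13.1 in the Control libraries, beside 577 and 633 counts of Ctgf in the cKO libraries and 529 and 528 in the Control libraries.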

How the data were processed

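Cortical RNA, in 2 cKO and 2 Control libraries, was prepared with SMART-Seq v4, per the labels' protocols. The authors used DRAGEN and build GRCm39, per the submitters' processing notes; no version, annotation release or setting was named in the sources used. The deposited table holds estimated counts and TPM per gene and library. Each deposited TPM column summed to 1000000. Between 12.0% and 13.5% of the rows of a library held estimated counts with decimals (tolerance 1e-06).

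Estimated counts were rounded to whole numbers. Genes passing edgeR's default filter (17017 of 55414) were scaled with TMM and compared by edgeR's quasi-likelihood test (edgeR 4.0.16, limma 3.58.1, R 4.3.3) with genotype as the term, Benjamini-Hochberg adjustment over all genes and a threshold of 0.05. The standard error is the absolute log2 fold change over the square root of F. The test was checked on simulated counts. Levels are CPM or the deposited TPM. Alternatives were DESeq2 (1.42.0), limma-voom, limma on log2(TPM + 1) and log2(TPM + 0.1), RLE and upper-quartile scaling, other filters, robust shrinkage, a replicate block and leaving out each library. No 2 libraries were duplicates (chi-square per degree of freedom at least 13.3).

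The 10 genes and the marker lists were chosen with earlier results of these data known. Of 117 list entries, 116 matched by symbol and 1 by synonym. Named were the 10 genes, Map2k7 and the first 3 genes of each other list, with exceptions marked; 1 gene that this rule names is left out here. The marker lists of meninges and fibroblasts and of endothelium and pericytes are given by sums; their first 3 genes are in the closing section.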

Additional observations from a re-analysis of the deposited data

How the results depend on the processing

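None of the 10 genes passed the threshold under any of the 15 alternatives run, and 147 of 150 log2 fold changes kept their sign. The 3 that turned were those of Fezf2 (-0.0626 without Control 2, range over left-out libraries up to 0.4097), Tle4 (0.0628 without cKO 2, down to -0.2096) and Nxph4 (-0.0785 without cKO 3, up to 0.3763). The cause was not tested. The adjusted p of Bcl11b ranged from 0.294 to 0.919 and its log2 fold change from -0.38 to -0.26. The median log2 fold change of the 10 genes lay between 0.0794 and 0.205 when a library was left out, with fewer samples in each of these fits. A lone library was then assumed to vary like the other group.

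Over all genes, where edgeR called 1 higher and 7 lower, no filter gave 21 and 37, DESeq2 80 and 105, and log2(TPM + 1) 33 and 14. Higher calls numbered 23 on log2(TPM + 0.1), 3 with limma-voom, 3 over protein-coding genes and 2 at a mean of at least 1 CPM. Without a library there were between 0 and 0 higher and between 0 and 2 lower calls. Replicate numbers are shared between genotypes, and deviations of same-numbered libraries were not correlated (r = 0.0049). With 2 libraries per genotype, and with the cKO libraries of different sex, this cannot settle whether the numbers pair the libraries. With a replicate block there were 1 higher and 6 lower calls, the median of the 10 genes was 0.167 and none of them passed. With 2 libraries per genotype, the widest interval was that of Nxph4, which also had the fewest counts.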

Other observations

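The vascular and meningeal genes named by rule beside Ctgf had the following values. Dcn, a proteoglycan gene of fibroblasts, stood at 75.3 and 62.8 CPM in the cKO libraries and at 36.9 and 49.9 CPM in the Control libraries (log2 fold change 0.67, SE 0.20, edgeR adjusted p = 0.362). Lum and Col1a1, a second proteoglycan and a collagen gene, stood at 0.10 (SE 0.29) and 0.36 (SE 0.18) on the log2 scale. Cldn5, the tight-junction gene of brain endothelium, stood at 103 and 90.7 CPM in the cKO libraries and at 105 and 104 CPM in the Control libraries (-0.11, SE 0.13). Pecam1 and Cdh5, adhesion genes of endothelium, had values of 0.35 (SE 0.25) and 0.74 (SE 0.46).

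The summed TPM of 13 upper-layer genes came to 40.8% and 39.1% of that of the 8 shared excitatory genes in the cKO libraries, against 50.5% and 48.4% in the Control libraries. Set against the upper-layer genes, the 10 deep-layer genes came to 113% and 130% in the cKO libraries and 114% and 108% in the Control libraries, which overlapped. Both ratios were chosen after the values were seen and were not tested.

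Among the promoter windows of the 10 genes, 8 starts of 6 genes were in the table. Besides the SOX core match of Tbr1, one lay in 1 of the windows of Etv1, at base -39, and in 1 of those of Tle4, at base -71. The GC content of the printed windows' full length was 43.0% for Bcl11b, 61.3% for Fezf2 and 46.0% for Tbr1, against a median of 52.7% over all windows.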
